A study of Mus musculus with 2 samples.

Results

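Foxp3 regulatory T (Treg) cells were described in 2 single-cell RNA-seq libraries of Cd45+ immune cells from B16-F10 melanoma, a transplantable mouse tumor line. The cells were chosen by their own counts of unique molecular identifiers (UMIs, each standing for 1 captured mRNA molecule). A Treg cell had at least 1 UMI of Foxp3, at least 2 UMIs over the T cell receptor complex genes Cd3d, Cd3e, Cd3g and Trac, at most 1 UMI over Cd8a and Cd8b1, at most 5 UMIs over the macrophage genes C1qa, C1qb and C1qc, and under 10% mitochondrial UMIs. The rule found 408 of 12304 cells, 282 of 6408 in the library labelled Irg1+/+ and 126 of 5896 in the library labelled Irg1-/-.

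Wild-type mice (Irg1+/+) and mice with both copies of Irg1 knocked out in the whole body (Irg1-/-), on the C57BL/6J background and female per the methods of the study, received 200000 B16-F10 cells under the skin. On day 10 a 100 mm3 piece of the tumor of each of 3 mice per genotype was pooled, 6000 Cd45+ cells were sorted from each pool, and the mRNA of single cells was captured with the BD Rhapsody system. There was 1 library per genotype, so a difference between the libraries had no replicate check, and no p-value is given. All intervals are 95% intervals, exact except for Newcombe's intervals of differences between shares, and cover counting error only, and a difference between genotypes cannot be told apart from a difference between pools or libraries.

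Treg cells are CD4 T cells whose transcription factor Foxp3 sets a suppressive program. They bind IL-2 with a high-affinity receptor that contains Il2ra (CD25), strip costimulatory ligands from antigen presenting cells with Ctla4, release inhibitory cytokines such as Il10, and activate latent TGF-beta held on Lrrc32 (GARP) through the integrin chain Itgb8. In tumors they are known for an activated phenotype with high Tnfrsf4 (OX40), Tnfrsf9, Icos and Ccr8. Irg1 (official symbol Acod1) encodes the enzyme that makes itaconate in activated myeloid cells.

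The data collected held 43617546 UMIs in the library labelled Irg1+/+ and 36432067 in the library labelled Irg1-/-. After the mitochondrial filter 6284 and 5794 cells were kept. Treg cells carried 1421551 and 680112 UMIs in all, with medians of 4370.5 and 4428 UMIs and 2069 and 2041.5 genes per cell. The deepest Treg cells had 22063 and 16456 UMIs and the shallowest 543 and 563, and the median mitochondrial share was 2.4% and 2.44%. The depth of Treg cells was therefore close in both libraries. Conventional CD4 T cells, chosen by at least 1 Cd4 UMI, no Foxp3 UMI and the same other limits, numbered 229 and 167 and were shallower, with medians of 3155 and 2505 UMIs. CD8 T cells, chosen by at least 2 UMIs of Cd8a and Cd8b1 and no Foxp3 UMI, numbered 439 and 216 with medians of 4106 and 3918.5 UMIs. No doublet caller was run, and 36 cell barcodes occurred in both libraries, of which 1 belonged to a Treg cell of the library labelled Irg1+/+ and 0 to a Treg cell of the other.

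Acod1, the deleted gene, was looked at first as a check of the labels. Over all kept cells it had 3696 UMIs (87.8 CPM, UMIs scaled to the same total in each group of cells) in the library labelled Irg1+/+ and 3805 UMIs (107.8 CPM) in the library labelled Irg1-/-. In Treg cells Acod1 had 108 UMIs (76.0 CPM, interval 62.3 to 91.7) and 29 UMIs (42.6 CPM, 28.6 to 61.2). The library labelled Irg1-/- was therefore not lower in Acod1 over all cells. The UMIs count the 3′ ends of transcripts, which part of Acod1 (chromosome 14, 103046977 to 103056573, plus strand, GRCm38) the knockout allele lacks is not given in the sources used here, and tags outside a deleted part check nothing. The genotypes below are those of the labels.

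Most chosen cells carried the markers of Treg cells beside Foxp3. Foxp3 reached 16 UMIs in a cell of the library labelled Irg1+/+ and 11 in a cell of the library labelled Irg1-/-, and the medians of the 4 T cell receptor complex genes together were 14 and 13 UMIs. These genes chose the cells, so their levels are given as a description only. At least 3 of Ikzf2 (Helios, a transcription factor of Treg cells), Ctla4, Il2ra and Tnfrsf4 had a UMI in 219 of 282 (77.7%) and 88 of 126 (69.8%) Treg cells, against 18.8% and 13.8% of conventional CD4 T cells and 16.6% and 18.1% of CD8 T cells. By these 4 markers the label fitted the group as a whole, and less well the cells at the Foxp3 limit. A single Foxp3 UMI was the evidence in 99 cells (35.1%, 29.5 to 41) of the library labelled Irg1+/+ and 49 cells (38.9%, 30.3 to 48) of the library labelled Irg1-/-. Of these, 42.4% and 42.9% had at least 3 of the 4 markers, and 22 and 14 cells had none of them. Among cells with 2 Foxp3 UMIs the shares with at least 3 markers were 87.9% and 71.4%, and among cells with 3 or more they were 98.7% and 92.9%.

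Single markers showed the same gradient. Ikzf2 had a UMI in 93.4% and 93.5% of Treg cells with at least 2 Foxp3 UMIs, in 49.5% and 46.9% of those with 1, in 30.6% and 22.2% of conventional CD4 T cells and in 6.9% and 8.86% of macrophages (at least 20 C1q UMIs and no T cell receptor complex UMI). Il2ra had a UMI in 89.1% and 81.8%, then 44.4% and 42.9%, then 18.3% and 23.4% of the same T cell groups. Ctla4 was less selective, with a UMI in 96.7% and 93.5% of cells with at least 2 Foxp3 UMIs and still in 56.3% and 46.7% of conventional CD4 and 50.1% and 52.3% of CD8 T cells. Tnfrsf4 had a UMI in 94% and 80.5% of cells with at least 2 Foxp3 UMIs and in 40.2% and 28.1% of conventional CD4 T cells. Cd4 itself, which the rule did not require, had a UMI in 83.6% and 77.9% of cells with at least 2 Foxp3 UMIs and in 42.4% and 44.9% of those with 1. Cells with at least 2 Foxp3 UMIs had medians of 4535 and 4847 UMIs, and those with 1 had 3897 and 4316.

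**Figure D1:**
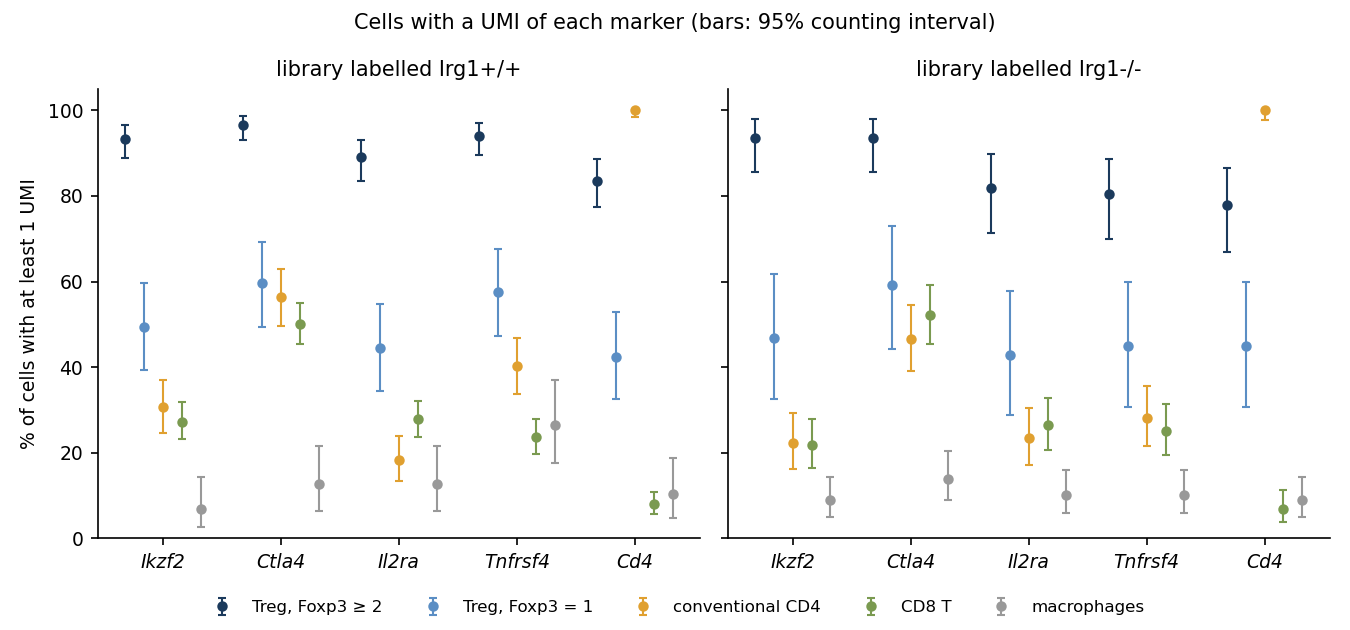
Share of cells with at least 1 UMI (y axis, %) of Ikzf2, Ctla4, Il2ra, Tnfrsf4 and Cd4 in Treg cells with at least 2 or with 1 Foxp3 UMI, conventional CD4 T cells, CD8 T cells and macrophages of each library, with bars for the 95% counting interval. Treg cells with at least 2 Foxp3 UMIs lie at the top for the first 4 genes, for instance at 93.4% and 93.5% for Ikzf2, while those with 1 lie lower, at 49.5% and 46.9%; conventional CD4 T cells are at 100% for Cd4 because it chose them.

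The plot of marker shares by cell group shows the step between 1 and 2 Foxp3 UMIs in both libraries. UMIs of genes of other cell types were also present. Macrophages, which should lack Foxp3, had a Foxp3 UMI in 5 of 87 cells (5.75%, 1.89 to 12.9) and 5 of 158 cells (3.16%, 1.04 to 7.23) at medians of 7112 and 7316.5 UMIs, and B cells in 1 of 35 (2.86%) and 0 of 48 cells, where 3 counts would be a share of 6.25% and the exact upper limit was 7.4%. Both groups were chosen to have no T cell receptor complex UMI, which left out cells that carried such RNA. Their Foxp3 shares may therefore lie below those of other macrophages and B cells. Conversely, Lyz2, a lysozyme gene of myeloid cells, had a UMI in 96.8% and 95.2% of Treg cells and in 94.3% and 92.8% of conventional CD4 T cells. Whether free RNA or cells captured together gave these UMIs was not tested. Markers of other cells (a macrophage or dendritic cell list at 1% of UMIs or more, or at least 10 UMIs of a natural killer (NK) cell list) were carried by 53 of 99 (53.5%) and 23 of 49 (46.9%) cells with 1 Foxp3 UMI but by 23 of 183 (12.6%) and 15 of 77 (19.5%) of those with at least 2. This measure was chosen after the values were seen. The remaining 160 and 62 cells, with at least 2 Foxp3 UMIs and no such markers, are called strict Treg cells below, and where their values matter they are set beside the main ones.

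The limits of the rule passed through populated ranges. Of the cells with a Foxp3 UMI, 693 and 311 in all, 298 and 118 had more than 5 C1q UMIs. Among the rest, 64 and 50 had fewer than 2 UMIs of the T cell receptor complex genes and 49 and 17 had at least 2 UMIs of Cd8a and Cd8b1. Just inside the limits lay 30 and 11 cells with exactly 2 T cell receptor complex UMIs, 64 and 32 with 1 Cd8 UMI and 30 and 12 with 5 C1q UMIs. Just outside lay 34 and 18 cells with 1 T cell receptor complex UMI, 20 and 10 with 2 Cd8 UMIs and 20 and 6 with 6 C1q UMIs. At the Foxp3 limit, 99 and 49 cells had 1 Foxp3 UMI, and 1041 and 816 cells that met the other limits had 0.

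Treg cells made up a smaller share of the library labelled Irg1-/-. Of the kept cells of the library labelled Irg1+/+ they were 4.49% (3.99 to 5.03), and of those of the library labelled Irg1-/- 2.17% (1.81 to 2.58), which gave a difference of -2.31 percentage points (-2.95 to -1.68). Among cells with at least 2 T cell receptor complex UMIs they were 15.6% (13.9 to 17.3) of 1811 and 10.7% (9.01 to 12.6) of 1175, which differed by -4.85 points (-7.24 to -2.37). Among Treg and conventional CD4 T cells together they were 55.2% (50.8 to 59.6) and 43.0% (37.3 to 48.9), a difference of -12.2 points (-19.2 to -5). Each of these 3 intervals of the difference lay below 0. The third share is not that of all CD4 T cells, because conventional CD4 T cells needed a Cd4 UMI and Treg cells did not. A Cd4 UMI was found in 69.1% and 65.1% of Treg cells. Of 1041 and 816 cells with 0 Foxp3 UMIs that met the other limits, 229 and 167 had a Cd4 UMI and were counted. With a Cd4 UMI required of Treg cells too, the share was 46.0% and 32.9%. The number of CD8 T cells per Treg cell was 1.56 (1.34 to 1.81) and 1.71 (1.37 to 2.15), with intervals that overlapped. It was 2.09 (1.78 to 2.46) and 2.67 (2.09 to 3.42) with cells thinned to 2000 UMIs. For strict Treg cells, and CD8 T cells without markers of other cells, it was 1.77 (1.45 to 2.16) and 2.35 (1.74 to 3.22). CD8 T cells were also a smaller part of the library labelled Irg1-/-, at 439 of 6284 and 216 of 5794 kept cells. Requiring at least 2 Foxp3 UMIs gave 2.91% and 1.33% of kept cells and 44.4% and 31.6% of Treg plus conventional CD4 T cells, and strict Treg cells were 2.55% and 1.07% of kept cells. After cells were thinned to 2000 UMIs and shallower cells left out, Treg cells were 4.77% of 4798 and 2.07% of 4502 cells and 55.2% and 46% of Treg plus conventional CD4 T cells, a difference of -9.14 points (-17.4 to -0.743). Shares of a sort that takes all Cd45+ cells depend on every other cell type in it, and the amount of each cell type in the tumors was not measured.

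**Figure D2:**
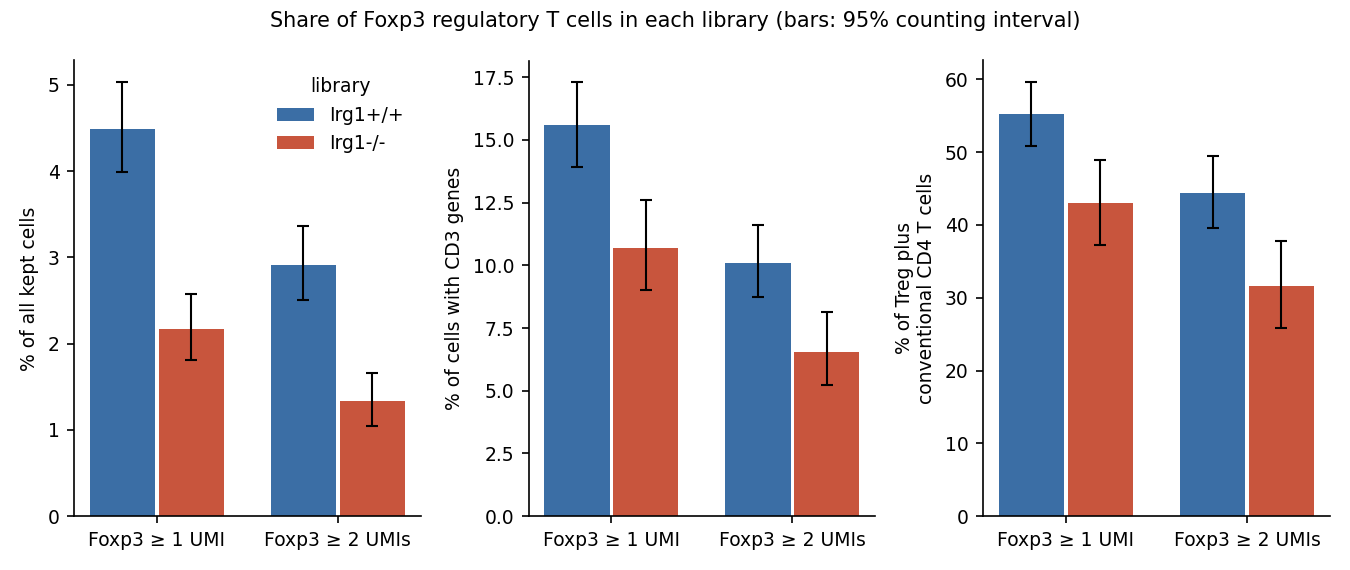
Treg cells as a share (y axes, %) of all kept cells, of cells with T cell receptor complex genes, and of Treg plus conventional CD4 T cells, in the libraries labelled Irg1+/+ (blue) and Irg1-/- (red), with at least 1 or at least 2 Foxp3 UMIs required; error bars are 95% counting intervals. The bar of the library labelled Irg1-/- is the lower one in each pair, at 2.17% against 4.49% of all kept cells.

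The plot of Treg shares shows the same order under both Foxp3 limits and all 3 denominators.

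Against conventional CD4 T cells of the same library, Treg cells had higher levels of Itgb8 and Lrrc32, which activate TGF-beta, of Ctla4 and of the IL-2 receptor chain Il2ra, and lower levels of Tcf7, Tnfsf11 and Ifng. Levels were summed UMIs in CPM, and a gene was counted as different when it was at least 2-fold higher or at least 2-fold lower in both libraries. Of 7220 genes with at least 20 UMIs in each library, 93 (1.29%) were higher and 74 (1.02%) lower in Treg cells. Foxp3, at 679.5 and 507.3 CPM in Treg cells, was at 0 in conventional CD4 T cells because it chose both groups. Itgb8 was at 192.7 CPM against 20.6 CPM in the library labelled Irg1+/+ and at 132.3 against 6.59 in the library labelled Irg1-/-, log2 ratios of 3.19 and 4.17. Its partner in TGF-beta activation, Lrrc32, was at 222.3 against 29.7 and 147 against 26.4 CPM (log2 ratios 2.88 and 2.44). Both genes were thus several-fold higher in Treg cells of either library. Ikzf2 was at 1047 against 186.3 and 860.2 against 194.5 CPM (2.49 and 2.14), Il2ra at 920.1 against 140.6 and 713.1 against 161.5 CPM (2.71 and 2.14), and Ctla4 at 1572 against 451.5 and 1362 against 390.7 CPM (1.80 in both).

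Klrg1, an inhibitory lectin receptor of highly differentiated lymphocytes, was at 263.1 against 60.6 CPM and 320.5 against 52.8 CPM, and Itgae (CD103), an integrin chain that binds E-cadherin, at 204 against 45.7 and 97.0 against 23.1 CPM. The log2 ratios were 2.11 and 2.58 for Klrg1 and 2.14 and 2.03 for Itgae. Il10 was at 163.9 against 41.2 and 163.2 against 49.5 CPM (1.98 and 1.71) and Tnfrsf4 at 733 against 233.2 and 601.4 against 169.8 CPM (1.65 and 1.82). Izumo1r (folate receptor 4), long used as a Treg surface marker, had log2 ratios of 2.03 and 2.08. Neb (2.72 and 2.53), Nusap1, a mitotic spindle gene (2.27 and 2.40), Arl5a (1.97 and 1.85), Sv2c (2.06 and 1.82) and Snx9 (1.94 and 1.80) were the remaining named genes on the higher side.

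Among the 10 lowest genes, Tcf7 (TCF-1), a transcription factor of naive and memory T cells, was at 42.2 against 299.5 CPM in the library labelled Irg1+/+ and at 38.2 against 281.9 CPM in the library labelled Irg1-/-, log2 ratios of -2.82 and -2.86. Tnfsf11 (RANKL), a cytokine of activated helper T cells, had log2 ratios of -3.26 and -3.42, and Ifng, the cytokine of type 1 helper T cells, of -1.68 and -1.61. S1pr1, the receptor by which T cells leave lymphoid tissue, had ratios of -2.29 and -1.58, and Themis, a T cell receptor signalling adaptor, of -2.26 and -2.05. Ehd3 (-1.80 and -2.71), Pde7a (-2.19 and -1.77), Dennd2d (-1.60 and -1.64), Cd96 (-1.66 and -1.51) and Gch1 (-1.54 and -1.49) made up the remainder of the 10. With strict Treg cells, and conventional CD4 T cells without markers of other cells, all 24 named genes other than Foxp3 reached the minimum of 20 UMIs and stayed at least 2-fold apart in the same direction, with Itgb8 at 2.97 and 3.85, Lrrc32 at 3.07 and 2.35 and Tcf7 at -4.08 and -3.38. These cells are a part of those whose ratios named the genes, so this is no independent check.

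**Figure D3:**
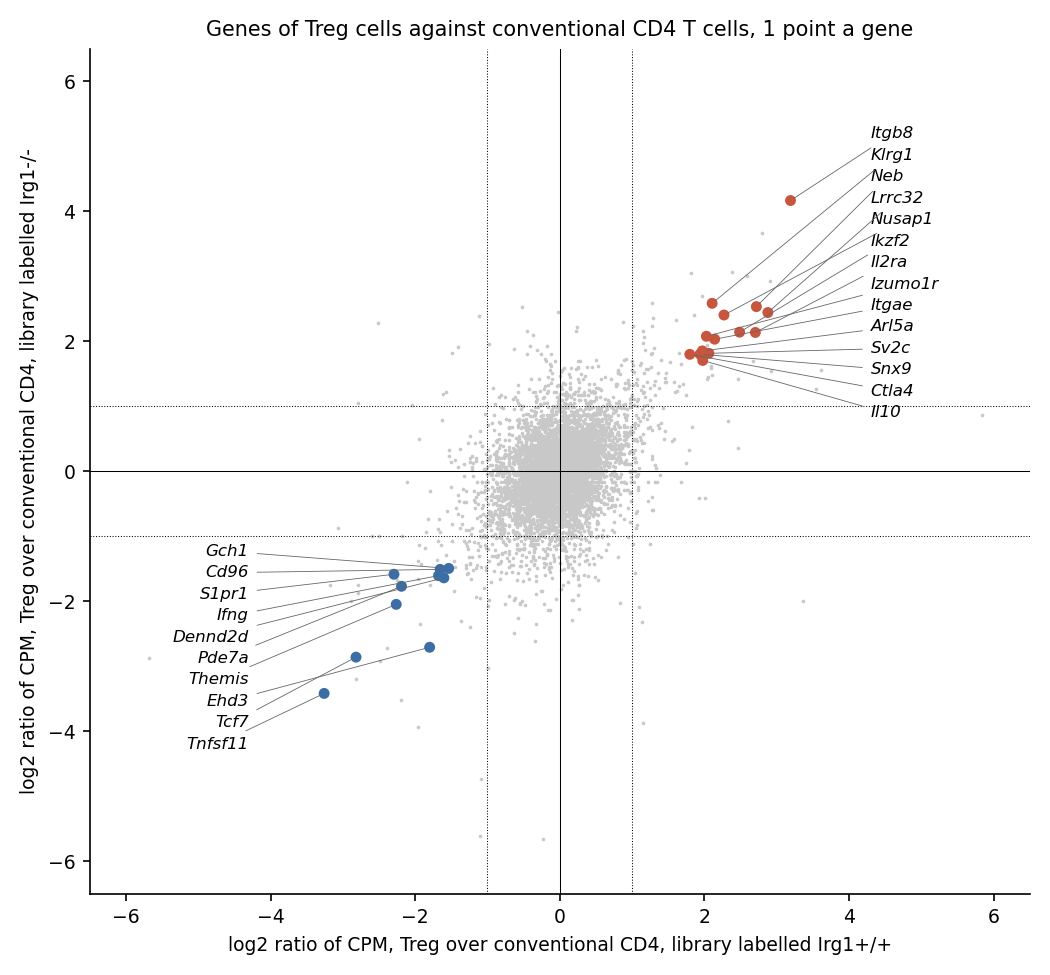
Log2 ratio of CPM, Treg over conventional CD4 T cells, in the library labelled Irg1+/+ (x axis) and in the library labelled Irg1-/- (y axis), 1 point a gene; dotted lines mark 2-fold, red and blue points the named highest and lowest genes, and Foxp3 is left out because it chose the cells. Itgb8 lies farthest up among the named genes at 3.19 and 4.17, and Tnfsf11 farthest down at -3.26 and -3.42.

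The plot of Treg against conventional CD4 T cells sets out both libraries together. Among the gene lists, suppressive effectors were on the higher side. Of 23 measured members, 10 were at least 2-fold higher in both libraries and 0 lower, beside 1.29% and 1.02% of all 7220 genes. Their medians were 0.82 and 1.23, against -0.02 and -0.01 over all genes. The 10 were Ctla4, Il10, Lrrc32, Itgb8, its partner chain Itgav (log2 ratios 1.46 and 1.44), the protease gene Gzmb (1.26 and 1.60), the inhibitory receptors Lag3 (1.28 and 2.36) and Tigit (1.57 and 1.38), the tissue repair factor Areg (3.61 and 1.56) and the proenkephalin gene Penk (1.25 and 1.28). The list of tissue and effector Treg genes, which shares members with it, had 10 of 15 higher and 0 lower, with medians of 1.21 and 1.45. Its members outside the first list included the IL-33 receptor Il1rl1 (1.19 and 1.58), the chemokine receptor Ccr8 (2.05 and 1.45), the costimulatory receptor Tnfrsf9 (2.10 and 1.62), the glutaredoxin Glrx (1.11 and 1.63) and the homeobox cofactor Hopx (1.21 and 1.03). In strict Treg cells 9 of 23 and 9 of 15 members were higher and 0 lower, beside 1.99% of all genes higher and 2.46% lower. Both lists were written for Treg cells and share the marker genes, and no test was made on them.

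Costimulatory receptors were divided. Over all genes, 1.29% were higher and 1.02% lower in both libraries. Of 14 costimulatory receptors measured, 5 were higher, namely Tnfrsf4, Tnfrsf9, Tnfrsf18 (GITR, 1.17 and 1.51), Cd27 (1.71 and 1.34) and Cd2 (1.02 and 1.02), and 1 was lower, the helper ligand Cd40lg (-5.68 and -2.88). Chemokine and homing genes had 2 of 21 higher (Ccr8 and Itgae) and 4 lower, namely Ccr9 (-2.20 and -3.52), S1pr1 and the integrin chains Itga4 (-1.02 and -1.01) and Itgb1 (-1.13 and -1.21). Resting T cell genes had 0 of 10 higher and 4 lower, namely Tcf7, S1pr1, the quiescence factor Klf2 (-1.19 and -1.08) and the repressor Bach2 (-1.37 and -2.30), with medians of -0.602 and -0.996. Effector helper genes had 0 of 10 higher and 2 lower (Ifng and Cd40lg). In strict Treg cells 4 of 14 costimulatory genes were higher and 2 lower, 2 of 19 chemokine and homing genes higher and 5 lower, and 4 of 9 resting and 4 of 8 effector helper genes lower, beside 1.99% of all genes higher and 2.46% lower.

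Other lists held fewer such genes, again beside 1.29% higher and 1.02% lower over all genes. Treg transcription factors had 2 of 27 higher, Ikzf2 and its relative Ikzf4 (2.92 and 1.54), and 1 lower, Bach2. The IL-2 receptor list had 1 of 18 higher, Il2ra itself, with medians of 0.26 and -0.16. Cell cycle genes had 3 of 28 higher, Mki67 (1.01 and 1.32), Cenpf (1.67 and 1.66) and Nusap1, with medians of 0.52 and 1.02. Type II interferon genes had 3 of 36 higher, the GTPase genes Gbp3 (1.16 and 1.22), Iigp1 (2.11 and 1.49) and Irgm2 (1.16 and 1.32). Type I interferon genes had 1 of 33 higher (Isg20, 1.31 and 1.34), glycolysis and hypoxia genes 1 of 23 (Ddit4, 1.46 and 1.37), and T cell receptor signalling genes 0 of 25. Dissociation stress genes had 0 of 21 in either direction, with medians of -0.25 and -0.30, but in strict Treg cells 5 of 20 were at least 2-fold lower, with medians of -0.505 and -0.748. Their summed level was 10246 and 11775 CPM in Treg cells against 14467 and 15368 CPM in conventional CD4 T cells. The macrophage list was at 10446 and 10364 CPM in Treg cells and 12244 and 12862 CPM in conventional CD4 T cells, against 31658 and 31266 CPM in macrophages, with Lyz2 its most abundant gene (2461 and 2466 CPM in Treg cells). None of its 15 members was 2-fold different between the T cell groups in both libraries, and the part of such RNA in the comparison was not tested.

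Against CD8 T cells, Treg cells were again higher in Itgb8, Lrrc32 and Ikzf2, and they were lower in Gzmk, Klrc1 and Eomes. Of 8128 genes, 154 (1.89%) were at least 2-fold higher and 139 (1.71%) at least 2-fold lower in Treg cells of both libraries. Itgb8 (log2 ratios 5.12 and 6.67), Lrrc32 (5.11 and 5.60), Izumo1r (4.03 and 4.97), Il10 (4.04 and 3.91), Maf, a transcription factor that drives Il10 (3.28 and 3.36), Ccr8 (3.24 and 3.10), Tnfrsf4 (2.91 and 2.93) and Ikzf2 (2.78 and 3.01) were higher. Cd4 was higher by 3.68 and 3.97, although the rule for Treg cells did not use it. Lower were the granzyme genes Gzmk (-4.80 and -3.67) and Gzmf (-3.31 and -4.23), the inhibitory NK receptor gene Klrc1 (-3.26 and -3.16), Ifng (-3.39 and -2.52) and Eomes, a transcription factor of cytotoxic T cells (-2.48 and -2.74). Other granzyme genes differed between the libraries. Gzma had log2 ratios of -1.85 and 0.33 against CD8 T cells, and Gzmc of -3.14 and -0.31. The Gzmb level in Treg cells, 1391 and 2057 CPM, was set against 2078 and 2183 CPM in CD8 T cells (log2 ratios -0.58 and -0.09), and 78.4% and 81.7% of Treg cells had a Gzmb UMI against 77.0% and 74.1% of CD8 T cells and 50.6% and 53.8% of macrophages. The genes of this paragraph outside the naming rule were chosen after their values were seen.

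Within the Treg cells, those with at least 2 Foxp3 UMIs carried more of the Treg program per UMI than those with 1. Ikzf2 was at 1371 against 406.6 CPM and 1135 against 410.7 CPM (log2 ratios 1.75 and 1.46), Ctla4 at 2013 against 700 and 1815 against 620 CPM (1.52 and 1.55), Icos at 2532 against 802.7 and 1893 against 856.3 CPM (1.66 and 1.14), and Il2ra at 1159 against 446.4 and 936 against 348.7 CPM (1.37 and 1.42). Tigit (1.66 and 1.61), Lrrc32 (2.00 and 1.35), Itgb8 (2.07 and 1.07), Ccr8 (2.33 and 1.02) and the proliferation genes Mki67 (1.78 and 1.49) and Top2a (1.91 and 1.82) were also higher in both libraries. Lower were Ccr7, the lymph node homing receptor that mature dendritic cells also express (-2.14 and -2.13), Actn1 (-2.69 and -2.69), Itga4 (-2.03 and -1.36) and the inflammatory chemokine receptor Ccr1 (-1.72 and -1.59). Lyz2 moved with the split, at 1749 against 3869 CPM and 1993 against 3239 CPM, and the summed macrophage list was at 7127 against 17013 CPM and 8533 against 13360 CPM. The summed dendritic cell list was at 7613 against 18434 CPM and 11229 against 17568 CPM, and the summed NK list at 241.4 against 718.8 and 483.4 against 1918 CPM. Their part in this split was not tested.

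Ikzf2 had no UMI in 62 (22.0%) and 31 (24.6%) Treg cells, and in 12 (6.56%) and 5 (6.49%) of those with at least 2 Foxp3 UMIs. Over all Treg cells, Itgb8 was at 245.2 CPM in cells with an Ikzf2 UMI against 18.3 CPM in cells without in the library labelled Irg1+/+, and at 165.2 against 34.9 CPM in the library labelled Irg1-/-. Lyz2 was lower in cells with an Ikzf2 UMI, by log2 ratios of -1.30 and -1.03. Among cells with at least 2 Foxp3 UMIs the ratios of Lyz2 were -0.10 and 0.60 and those of Ctla4 0.34 (0.05 to 0.65) and 0.75 (0.12 to 1.55).

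Cell cycle genes were found in part of the Treg cells. At least 2 UMIs over Mki67, Top2a, Cdk1, Birc5, Ccnb2, Ube2c and Tpx2 were found in 104 (36.9%) and 53 (42.1%) Treg cells, and in 40.4% and 44.2% of those with at least 2 Foxp3 UMIs. These cells were deeper, with medians of 6146 and 6834 UMIs against 3664 and 3557. The share in cell types that do not divide was not measured. Thinned to 2000 UMIs, the share was 18.4% (13.9 to 23.7) and 20.2% (13.2 to 28.7), and that of conventional CD4 T cells 14.7% and 14.2%, so neither the libraries nor the cell groups separated beyond counting error. Among cells with at least 2 Foxp3 UMIs, the cycling cells, with medians of 6117.5 and 6847 UMIs against 3745 and 3132, were lower in Ikzf2 (log2 ratios -0.24 and -0.42), Tnfrsf4 (-0.37 and -0.47), Itgae (-0.68 and -1.09) and Areg (-0.54 and -1.25) per UMI than the rest.

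Between the libraries, the Treg markers that did not choose the cells had ratios below 0 over all Treg cells, but not under every setting. The log2 ratios of Il2ra, Ikzf2, Tnfrsf4 and Ctla4 were -0.37, -0.28, -0.28 and -0.21, each with an interval below 0 and none at 2-fold. In strict Treg cells they were -0.30, -0.13, -0.20 and -0.23. Among the 40 and 14 cells with no C1q UMI, those of Il2ra and Tnfrsf4 were 0.0161 and 0.0684. With cells thinned to 2000 UMIs and shallower cells left out, Ikzf2 was level at -0.00385, and Il2ra, Tnfrsf4 and Ctla4 were at -0.236, -0.472 and -0.198. Foxp3, whose UMIs chose the cells, was at 679.5 CPM in the library labelled Irg1+/+ and 507.3 CPM in the library labelled Irg1-/- (-0.42), which is given as a description. Tnfrsf4 had a UMI in 81.2% (76.1 to 85.6) and 66.7% (57.7 to 74.8) of Treg cells, against 26.4% and 10.1% of macrophages. Other T cell genes had ratios of -0.17 for Trbc2, -0.26 for Trbc1, -0.11 for Cd4 and 0.09 for Cd8a. Over 8452 genes with at least 20 UMIs, the median ratio was -0.03, 46.8% of ratios were above 0 and 53.2% below, 5.88% had an interval above 0 and 7.67% an interval below 0. Of these genes 146 (1.73%) were at least 2-fold higher and 314 (3.72%) at least 2-fold lower in the library labelled Irg1-/-. Most of these genes were too sparse to be measured in the fewer strict Treg cells, where 35 and 142 of them reached the minimum of 20 UMIs. There 22 and 79 were at least 2-fold apart in the same direction, and 1 and 1 had the opposite direction. Strict Treg cells are a part of the cells in which these genes were picked, so this is no independent check. In conventional CD4 T cells 92 and 208 could be measured. Of these 13 and 33 were at least 2-fold apart in the same direction, and 37 and 72 had the opposite direction.

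Suppressive effectors were divided between the directions. Of 24 measured, 14 were lower and 10 higher in the library labelled Irg1-/-, a split near the 53.2% lower over all genes, with 10 intervals below 0 and 4 above, beside 7.67% and 5.88% of all genes. A gene with more UMIs has a narrower interval, and the list was not matched to all genes in UMIs. The median of the effectors was -0.18, or -0.23 in strict Treg cells, with 2 at least 2-fold lower and 0 at least 2-fold higher, beside 3.72% and 1.73% of all genes. The 2 were Areg, at 229.3 and 113.2 CPM (log2 ratio -1.01, or -0.74 in strict Treg cells), and Penk, at 213.1 and 73.5 CPM (-1.52, or -0.63). In conventional CD4 T cells Areg was at 1.04 and Penk at -1.56, and over all kept cells they were at -0.73 and -1.94. Lrrc32 was at 222.3 and 147 CPM (-0.59, -0.94 to -0.27) and Itgb8 at 192.7 and 132.3 CPM (-0.54, -0.90 to -0.19). Gzmb went the other way, at 1391 and 2057 CPM (0.56), with 0.48 in strict Treg cells and 0.22 in conventional CD4 T cells. The galectin gene Lgals1 was at 1355 and 1701 CPM (0.33), and Il10 was level at 163.9 and 163.2 CPM. The effectors therefore did not move as 1 block between the libraries.

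Of 13 costimulatory receptors 10 were lower and 3 higher, against 53.2% lower over all genes (median -0.19, 0 at 2-fold), and in strict Treg cells 7 were lower and 6 higher. They included Icos at 1951 and 1500 CPM (-0.38) and Tnfrsf9 at 1213 and 921.9 CPM (-0.39). Of 20 chemokine and homing genes 13 were lower and 7 higher, with a median of -0.08, beside 53.2% lower and a median of -0.03 over all genes, and 13 and 7 with a median of -0.12 in strict Treg cells. Itgae was at least 2-fold lower, at 204 and 97.0 CPM (-1.06, -1.48 to -0.68), also in strict Treg cells (-1.17) and in conventional CD4 T cells (-0.95). S1pr1 was at least 2-fold higher, at 43.6 and 94.1 CPM (1.11, 0.58 to 1.64), with 1.02 in strict Treg cells and 0.40 in conventional CD4 T cells, and 13.5% and 28.6% of Treg cells had a UMI of it against 3.45% and 12.7% of macrophages. Ccr8 (-0.50) and Ccr2 at 1299 and 1200 CPM (-0.11) were lower by less. Over all kept cells Itgae was at -1.20 and S1pr1 at -0.22. Tissue and effector Treg genes had 12 of 17 lower and 5 higher, against 53.2% lower over all genes (median -0.10, and -0.18 in strict Treg cells with 11 lower and 6 higher), with Pparg, a regulator of adipose tissue Treg cells, and Areg at least 2-fold lower (-1.21 for Pparg, with -0.63 in strict Treg cells), while Il1rl1 was at 66.1 and 114.7 CPM (0.80, 0.34 to 1.24).

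The lists of type I interferon genes and of dissociation stress genes had more members higher than lower in the library labelled Irg1-/-. Counts of intervals are given with the limit that lists and all genes were not matched in UMIs, which set the width of an interval. Of 33 type I interferon genes 22 were higher and 11 lower, with 12 intervals above 0 and 3 below, where all genes had 46.8% higher, 5.88% of intervals above 0 and 7.67% below. Their median was 0.18, against 0.20 in strict Treg cells and 0.36 in conventional CD4 T cells. Ifi27l2a was at 707.7 and 1090 CPM (0.62) and Usp18, a negative regulator of the pathway, at 19.0 and 45.6 CPM (1.26), the member at least 2-fold higher. Rsad2 was at least 2-fold lower (-1.08), but at -0.24 in strict Treg cells. Over all genes 1.73% were at least 2-fold higher and 3.72% at least 2-fold lower. In strict Treg cells 3 of 30 type I interferon genes were at least 2-fold higher and 0 lower, beside 2.06% and 4.22% of all genes. Of 21 dissociation stress genes 14 were higher and 7 lower, against 46.8% higher over all genes, with a median of 0.26, 0.21 in strict Treg cells and 0.24 in conventional CD4 T cells. Junb was at 714.7 and 1076 CPM (0.59) and Btg2 at 277.2 and 499.9 CPM (0.85), and Hspb1, a heat shock gene, was at least 2-fold higher (2.11), but had 11 UMIs in strict Treg cells, below the minimum. Nr4a1, a gene induced by the T cell receptor and also by tissue digestion, was at 637.3 and 883.7 CPM (0.47), with 0.65 in strict Treg cells and -0.25 in conventional CD4 T cells. Whether handling of the pools played a part was not tested.

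The remaining functional lists had medians between -0.27 and 0.22, against -0.03 over all genes, and their counts stand beside 46.8% of all genes higher and 53.2% lower. Of 26 Treg transcription factors 11 were higher and 15 lower (median -0.08), with Satb1 the furthest of those named (-0.99). The IL-2 receptor list had 14 of 18 lower (median -0.27, and -0.13 in strict Treg cells), the T cell receptor signalling list 16 of 25 lower (median -0.09), glycolysis and hypoxia 16 of 23 lower (median -0.14), and none of the members of these 4 lists was 2-fold different. Type II interferon genes had 22 of 36 higher (median 0.06) and cell cycle genes 17 of 28 higher (median 0.13, and 0.00 in strict Treg cells), with 0 at 2-fold. Of 11 resting T cell genes 9 were lower and 2 higher, with a median of -0.22 but 0.00 in strict Treg cells. Igfbp4 (-1.97, -5.40 to -0.22) and Ly6c1 (-1.26, -3.10 to 0.03) were at least 2-fold lower beside the higher S1pr1, and at 0.67 and 1.91 in conventional CD4 T cells. The interval of Ly6c1 included 0. In strict Treg cells Igfbp4 had 7 UMIs, below the minimum, and Ly6c1 was at -1.51. Effector helper genes had 7 of 9 higher (median 0.22, and -0.01 in strict Treg cells). Fatty acid and cholesterol genes had 11 of 17 lower (median -0.07), with Fabp5 at -1.29 but 0.16 in strict Treg cells, and DNA methylation enzymes 5 of 8 lower (median -0.14), with Idh1 at -1.24, but 5 of 8 higher in strict Treg cells (median 0.17), with Idh1 at -0.78.

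**Figure D4:**
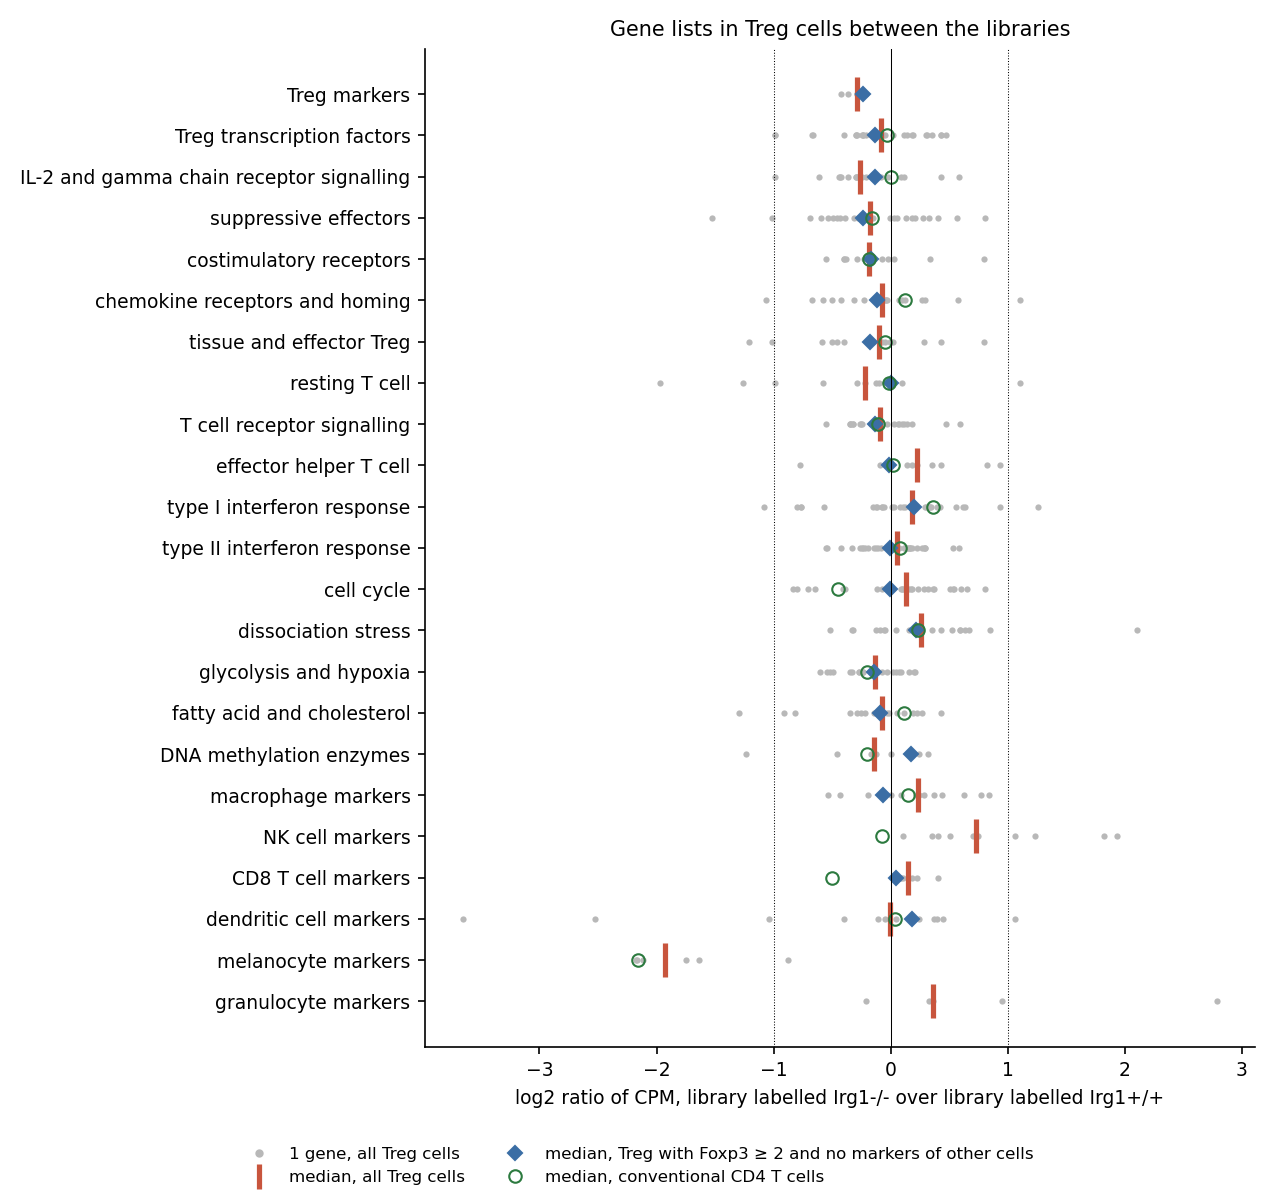
Log2 ratio of CPM in Treg cells, library labelled Irg1-/- over library labelled Irg1+/+ (x axis), for each gene of 23 lists (y axis); grey points are genes, red bars medians, blue diamonds medians in strict Treg cells, open circles medians in conventional CD4 T cells, and dotted lines 2-fold. The Treg marker, costimulatory and suppressive lists have medians between -0.28 and -0.18, the type I interferon and dissociation stress lists lie above 0, and the melanocyte list lies farthest to the left. The Treg marker list includes Foxp3, whose UMIs chose the cells, so its median is a description only.

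The plot of lists between the libraries also shows markers of other cells, which differed in the Treg gate. All 10 NK cell markers were higher in Treg cells of the library labelled Irg1-/-, 4 of them at least 2-fold (Gzma, Klrb1c, Ncr1 and Klra4), with 3 intervals above 0 and a median of 0.73. The interval of Klra4, with 26 UMIs, was -0.16 to 2.29. Over all genes 46.8% were higher, 1.73% at 2-fold, and 5.88% had an interval above 0. With at least 2 Foxp3 UMIs Klra4 was at -0.06, Prf1 at -0.32 and Klra8 at -1.25. The summed level of the list was 401.7 and 1028 CPM. In cells with at least 2 Foxp3 UMIs it was 241.4 and 483.4 CPM, in strict Treg cells 3 members could be measured, with a median of 0.05, and in conventional CD4 T cells it was 762.4 and 471.4 CPM. Limits on the NK, macrophage and dendritic cell lists chose the strict Treg cells, so their values for these lists are partly set by that choice. All 6 measured melanocyte markers were lower, 5 at least 2-fold, beside 53.2% and 3.72% of all genes. Their median was -1.93, with summed levels of 337.7 and 95.6 CPM, led by Gpnmb at 125.2 and 39.7 CPM. In strict Treg cells 4 were measured, all lower and 3 at least 2-fold, with a median of -1.27. The median in conventional CD4 T cells was -2.16. The macrophage list had 11 of 15 members higher (median 0.23, and -0.07 in strict Treg cells) at a nearly equal sum of 10446 and 10364 CPM. The dendritic cell list had 6 of 12 higher and 6 lower, 1 and 3 at 2-fold, with sums of 11245 and 13635 CPM and H2-Ab1 its most abundant gene at 2919 and 3770 CPM. The CD8 list had 6 of 6 measured members higher (median 0.15, 2 intervals above 0), but the rule itself capped Cd8a and Cd8b1. In strict Treg cells 3 of its members were higher and 2 lower (median 0.05). The granulocyte list had 4 of 5 higher (median 0.36) and the B cell list 2 of 2 (median 0.59), with Igkc at 272.9 and 427.9 CPM and 2 defining members at 0. Of the gamma delta T cell list 1 member could be measured, Trdc (2.16). The part of these cells, or of their free RNA, in the differences of the Treg cells was not tested.

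The 10 highest genes of the naming rule held several that were also higher outside Treg cells. Gm47015, a long noncoding RNA gene (chromosome 10, 79412962 to 79417905, minus strand), had 21 UMIs in 4.61% of Treg cells of the library labelled Irg1+/+ and 139 UMIs in 51.6% of those of the library labelled Irg1-/-, 14.8 and 204.4 CPM (log2 ratio 3.76). It was also higher in conventional CD4 T cells (2.45) and in all kept cells (2.85), and 15.8% of macrophages of the library labelled Irg1-/- had a UMI of it. Tpm3-rs7 (chromosome 14, 113314608 to 113316754, plus strand), a tropomyosin-related sequence 10.3 Mb from Acod1, had 18 and 88 UMIs in 6.03% and 45.2% of Treg cells, 12.7 and 129.4 CPM (3.32), with 3.91 in conventional CD4 T cells and 3.53 in all kept cells. Its counts are uncertain, because reads can be shared with near-identical tropomyosin genes. Both genes were thus higher across cell groups and not in Treg cells alone.

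Gzma, a protease gene of NK and cytotoxic T cells, had 266 and 451 UMIs, 187.1 and 663.1 CPM (log2 ratio 1.82), with a UMI in 31.9% and 60.3% of Treg cells. Macrophages, which should lack Gzma, had a UMI of it in 43.7% and 66.5% of cells at a greater depth, above the shares of Treg cells, and the source of these UMIs was not tested. A single cell held 30.5% and 38.4% of the Gzma UMIs of Treg cells. The ratio was 1.44 in strict Treg cells, 1.15 in all kept cells, -0.98 in conventional CD4 T cells and -0.36 in CD8 T cells. For Gzmc, another granzyme (1.75), 58.6% of the UMIs of the library labelled Irg1-/- lay in 1 cell, and for the chemokine gene Xcl1 (1.96) 74.3%; in Treg cells with at least 2 Foxp3 UMIs the ratio of Gzmc was -1.10, and in strict Treg cells that of Xcl1 was 0.36. The other 5 were the NK receptor gene Klrb1c (1.94, with -1.12 in conventional CD4 T cells), Adgrg5 (2.15), Marchf1 (1.84), the immunoglobulin gene Igha (1.62, and 2.01 in all kept cells) and Rapsn (1.32). In strict Treg cells Klrb1c, Adgrg5 and Marchf1 had 7, 12 and 11 UMIs, below the minimum of 20.

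Among the 10 lowest genes of the naming rule, Ighg2b, an immunoglobulin constant gene of plasma cells, had 57 UMIs (40.1 CPM) in 17.7% of Treg cells of the library labelled Irg1+/+ and 0 UMIs in the library labelled Irg1-/-, where 3 counts over the group would be 4.41 CPM. The upper end of the exact interval of its log2 ratio was -2.84. It was also lower over all kept cells (-5.81), and 24.1% of macrophages of the library labelled Irg1+/+ had a UMI of it. The pigment genes Dct and Pmel, at -2.12 and -1.74, were at -1.33 and -1.20 in strict Treg cells, and were lower in all kept cells too, by -2.25 and -1.96. Ccl22, a chemokine gene of mature dendritic cells whose receptor Treg cells carry, had 729 and 60 UMIs, 512.8 and 88.2 CPM (-2.53), of which 1 cell held 25.1% and 46.7%, and macrophages had a UMI of it in 31.0% and 34.2% of cells against 31.9% and 20.6% of Treg cells. Its ratio was -0.96 in strict Treg cells and -0.77 in all kept cells. The neutrophil chemokine gene Cxcl1 was at 89.3 and 7.35 CPM (-3.47, with -1.40 in strict Treg cells) and the myeloid gene Spp1 at -2.22 (-0.53 in strict Treg cells). Tsc22d1 (-2.16), Stab1 (-2.02), Rnf181 (-1.86) and Gtf2h2 (-1.74) made up the remaining 4, and Tsc22d1 and Rnf181 were close to level over all kept cells, at -0.09 and -0.19. In strict Treg cells Tsc22d1 and Stab1 had 18 and 19 UMIs, below the minimum of 20, while Rnf181 was at -1.57 and Gtf2h2 at -2.29. With at least 2 Foxp3 UMIs Tsc22d1 was at -1.22, with an interval of -3.35 to 0.19.

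**Figure D5:**
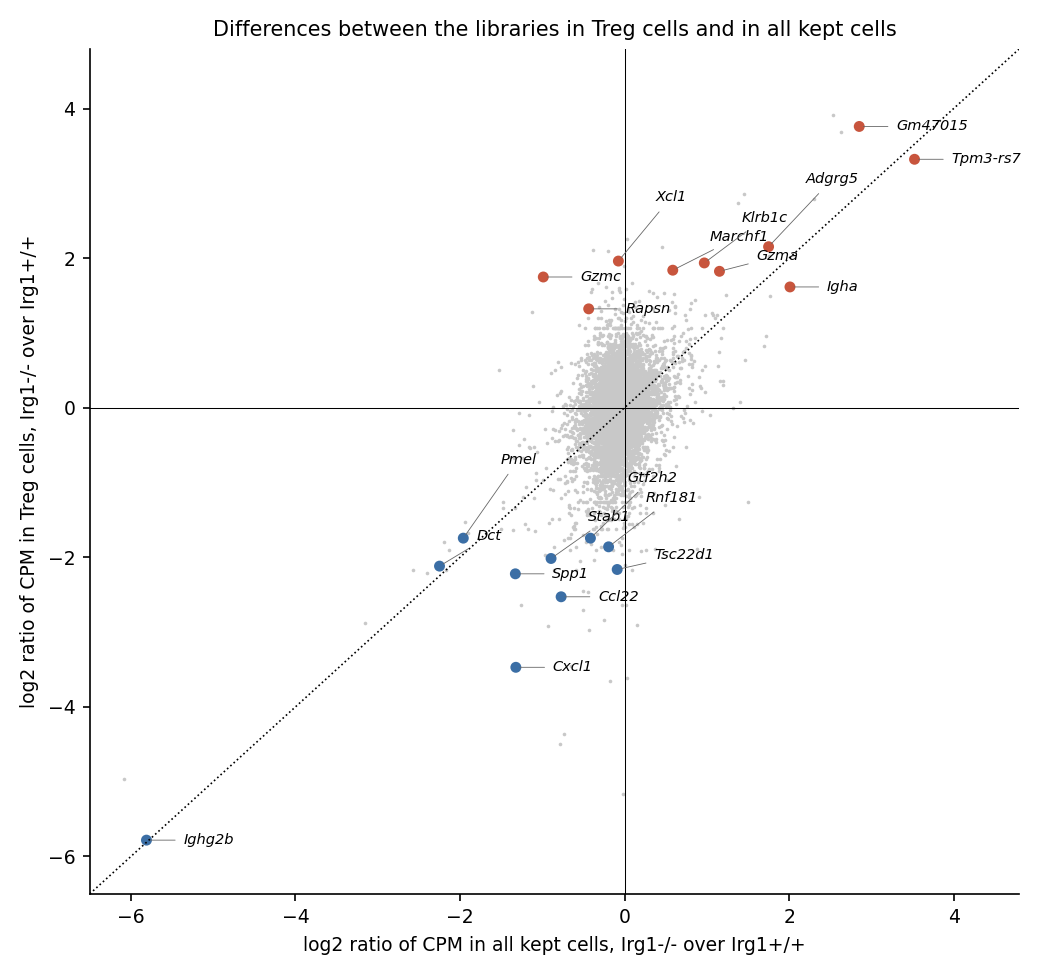
Log2 ratio of CPM, library labelled Irg1-/- over library labelled Irg1+/+, in all kept cells (x axis) and in Treg cells (y axis), 1 point a gene with a dotted line at equal ratios; red and blue points are the 10 highest and 10 lowest genes of the naming rule, and the position of Ighg2b, at 0 UMIs in Treg cells of the library labelled Irg1-/-, depends on the pseudocount. Tpm3-rs7, Gm47015, Dct, Pmel and Ighg2b lie on the same side of 0 in both groups of cells, and Gzmc, Rapsn and Xcl1 on opposite sides.

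The plot of Treg cells against all kept cells places the 20 genes. Treg cells are themselves among the kept cells.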

How the data were processed

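The deposited files held raw UMI counts per gene and cell, which the authors made from reads trimmed with fastp, with cell barcodes listed by UMI-tools and alignment by STAR to the mouse genome of Ensembl (GRCm38); the submitters' processing notes also name CASAVA 1.8 and Seurat. Both files listed 31253 genes. Gene positions came from GENCODE mouse annotation on GRCm38, in which 31184 identifiers (99.8%) were found. Cells with 10% or more mitochondrial UMIs were left out, and 13 mitochondrial genes were then removed; no doublet caller was run.

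The Treg cells and all 25 gene lists were chosen with earlier results of these data known, so no list counts as independent support. UMIs were summed per group of cells and given in CPM, with Poisson intervals. Ratios used a pseudocount of 0.5 UMIs and exact conditional binomial intervals, shares Clopper-Pearson intervals, and differences of shares Newcombe intervals. Genes were called at 2-fold, a rule of size without a test, since each genotype had 1 library. The scripts were tested on simulated data. The naming rules took the 5 markers, and Acod1, Cd4, Cd8a, Trbc1 and Trbc2. Per list they took up to 5 members with most UMIs and those at 2-fold between the libraries, of which the text gives a selection. They also took the 10 highest and 10 lowest genes between the libraries, and the 15 highest and 10 lowest against conventional CD4 T cells. Those genes had at least 50 UMIs and a UMI in 10% of cells of either group. Further genes met none of these rules and were named after their values were seen. Among them are Actn1, Ccr1, Btg2, Il1rl1 and some list members 2-fold apart between cell groups. Other limits on Foxp3, Cd4, C1q, Cd8, mitochondrial share, depth and cycling cells, TMM scaling (edgeR 4.0.16 in R 4.3.3), the mean of each cell's CPM, a minimum of 50 UMIs and a pseudocount of 1 were tried. Values of some members of the lists, and 1 split of the Treg cells that used such a gene, are not reported here. Python 3.11.15 with scipy 1.17.1 was used.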

Additional observations from a re-analysis of the deposited data

Results flagged for a closer look

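Gzma and Gzmc had opposite directions between the libraries in Treg cells and in conventional CD4 T cells. The log2 ratio of the library labelled Irg1-/- over the library labelled Irg1+/+ was 1.82 for Gzma in Treg cells against -0.98 in conventional CD4 T cells, and 1.75 for Gzmc against -1.58. In Treg cells with at least 2 Foxp3 UMIs and in strict Treg cells Gzmc was at -1.10 and -0.84, the direction of conventional CD4 T cells, and 58.6% of its Treg UMIs in the library labelled Irg1-/- lay in 1 cell. Gzma was at 1.70 in macrophages, which should lack it. With 1 library per genotype the difference between the cell groups was not tested.

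Cells with a Foxp3 UMI and T cell receptor complex genes but at least 2 UMIs of Cd8a and Cd8b1 lay outside the comparisons. They numbered 49 in the library labelled Irg1+/+ and 17 in the library labelled Irg1-/-, with medians of 7951 and 6677 UMIs, and Foxp3 was at 1 UMI in 16 and 12 of them. Their Cd8a level was 474.8 and 436.7 CPM and their Cd4 level 348.9 and 300.2 CPM. Ikzf2 was at 702.6 and 400.3 CPM, Ctla4 at 1211 and 764.3 CPM, and Lyz2 at 1153 and 2074 CPM. How many of them held RNA of more than 1 cell was not tested.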

How the results depend on the processing

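The share of Treg cells was lower in the library labelled Irg1-/- under every setting run for the 2 denominators, although its level moved with the rule. Of kept cells, Treg cells were 4.49% in the library labelled Irg1+/+ and 2.17% in the library labelled Irg1-/-. The shares were 2.91% and 1.33% with at least 2 Foxp3 UMIs, 3.1% and 1.42% with a Cd4 UMI required, 0.637% and 0.242% with no C1q UMI, 3.47% and 1.62% with no Cd8 UMI, 2.83% and 1.26% without cycling cells, and 3.28% and 1.52% without cells carrying markers of other cells. Of Treg plus conventional CD4 T cells, 55.2% and 43.0% became 44.4% and 31.6% with at least 2 Foxp3 UMIs, 46.0% and 32.9% with a Cd4 UMI required, 44.9% and 23.7% with no C1q UMI, and 66.7% and 54.8% without conventional cells that had an Ikzf2 or Il2ra UMI. Without cycling cells the share in the library labelled Irg1-/- was 35.1%. Fewer cells enter each of these settings by construction.

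The share of genes at least 2-fold higher in Treg cells of the library labelled Irg1-/- was 1.73%, and 5.54% with no C1q UMI, 2.73% without cycling cells, 2.85% by the mean of each cell's CPM and 0.542% with at least 50 UMIs. The share at least 2-fold lower was 3.72%, and 6.58% with no C1q UMI and 1.53% with at least 50 UMIs. Against conventional CD4 T cells, 1.29% of genes were higher, and 2.11% with no C1q UMI, 2.03% without cells carrying markers of other cells and 1.99% with at least 2 Foxp3 UMIs as well. There 1.02% were lower, and 2.52% with at least 2 Foxp3 UMIs, 2.36% with a Cd4 UMI required, 2.39% with no C1q UMI, 2.16% without cells carrying markers of other cells and 2.46% with both. Of 343 values for 25 named genes between the libraries, 286 stayed within the counting interval, 49 left it in the same direction and 8 changed sign. The 8 were Il2ra at 0.0161 and Tnfrsf4 at 0.0684 with no C1q UMI (40 and 14 cells), Xcl1 at -0.0475 without cycling cells, Gzma at -0.489 with no C1q UMI, and Gzmc at -1.10 with at least 2 Foxp3 UMIs, -1.05 with a Cd4 UMI required, -1.69 without cycling cells and -0.843 in strict Treg cells. Of 374 values for 26 named genes against conventional CD4 T cells, 325 stayed within the interval, 49 left it and 0 changed sign. The cause of these changes was not tested. Apart from the markers, the named genes were picked by their ratios in the main setting, and the other settings drew largely on the same cells. The counts of values are therefore no independent check. The settings on markers of other cells and on shared barcodes were chosen after seeing the data.

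No paired analysis was possible because there was 1 library per genotype, and for the same reason no replicate was left out. Depth limits what was seen: a gene near 20 UMIs has a counting interval wider than 2-fold.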
